A study of Bos taurus with 20 samples.

Results

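Myostatin and the regulators of muscle formation were examined in back muscle of crossbred bulls. The set held 9 genes: MSTN (myostatin), its receptor ACVR2B, its inhibitor FST (follistatin), the myogenic factors MYF5, MYOD1, MYOG and MYF6, the satellite cell factor PAX7 and the cofactor MEF2C. Members were all probe sets annotated to exactly 1 of these symbols, which gave 10 of the 24128 probe sets in the table and 8 of the 9 genes, among 9155 genes named by probe sets with 1 symbol. No probe set was annotated to PAX7 alone, so PAX7 was not analysed here. MSTN and MYOD1 each had a second, dim probe set. These 2 were among the 40% of probe sets with the lowest mean signal and were described without a test, and the other 8 probe sets, 1 per gene, were tested.

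The muscle was Musculus longissimus dorsi, which runs along the spine, taken from 20 F2 bulls bred by crossing Holstein (dairy) and Charolais (beef) cattle. Total RNA of each bull was hybridised to 1 Affymetrix array. Of these bulls 10 had high and 10 had low intramuscular fat (IMF), the fat between muscle fibres, and the study compared these groups. The sample titles carry animal numbers with an S in 10 bulls and without it in 10, with 5 high and 5 low IMF bulls in each kind. The labels do not say what S stands for, and they give no age, sire, MSTN genotype or pairing of animals. The kinds are called S animals and no S animals here and were compared as a possible batch. High IMF replicates 6 to 10 and low IMF replicates 6 to 10 are S animals, and replicates 1 to 5 of each group are no S animals.

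Myostatin is a secreted member of the TGF-beta family that is made by muscle and limits its growth. It binds activin type II receptors such as ACVR2B on the cell surface and acts through SMAD proteins, and follistatin binds it outside the cell and keeps it from the receptor. MYF5 and MYOD1 commit cells to the muscle lineage, MYOG drives their differentiation into fibres, MYF6 is the member of this family that adult fibres express most, and MEF2C works with these factors at the promoters of muscle genes.

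The tissue label was checked first. Of 10 muscle fibre markers 7 had a probe set, and their summed signal ran from 90530 to 109100 in S animals and from 92420 to 98440 in no S animals. DES (desmin), a filament protein of muscle fibres, was the dimmest of these markers and averaged 9380 in S animals and 7130 in no S animals. In the test of S against no S animals described below, 3 of the 7 passed as higher and 1 as lower in S animals. The other 3 did not pass, and the median difference was 0.06 log2 units. Of all tested probe sets 68.3% passed. The adipocyte markers, 6 of 7 with a probe set, summed to between 1047 and 20510 in high IMF bulls (median 2950) and to between 229 and 9002 in low IMF bulls (median 969). The median signal of an array ran from 51.6 to 67.7, and high IMF replicates 6 and 9, both S animals, had the lowest medians. On 4 arrays the albumin signal was over 2000, those of high IMF replicates 6, 8 and 10 and of low IMF replicate 3. The arrays of S and no S animals also differed in signals that the animals do not make: of 21 spiked control probe sets, 8 did not overlap between the kinds, 5 being lower and 3 higher in S animals. The 5 lower ones belonged to the spikes BioB, BioC and BioDn and the 3 higher ones to the spike LysX, so several share a spike. Of all tested probe sets 19.6% did not overlap.

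No member gene passed the test between high and low IMF muscle. With limma's moderated test on log2(signal + 1) and Benjamini-Hochberg adjustment at 0.05, 0 of the 8 tested members passed, as did 0% of all 14410 tested probe sets. At an unadjusted p under 0.05 the members again gave 0, against 1.66% of all probe sets. With the title series, S or no S, as a covariate, 0 members passed at an adjusted and 0 at an unadjusted p under 0.05, where 7.34% of all probe sets passed the unadjusted threshold. The median size of the log2 difference was 0.12 over the members and 0.087 over all tested probe sets. Of the members 5 had a higher and 3 a lower mean in high IMF muscle, while 40.2% of all probe sets were higher and 59.8% lower.

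The intervals of these differences come from the fit without the title series, in which differences between S and no S animals count as error. With the title series as a covariate the SE was 0.17 in place of 0.35 for MYOD1 and 0.31 in place of 0.35 for MSTN. It was 0.14 in place of 0.24 for MYOG and for MEF2C, and stayed at 0.16 for FST. The MSTN mean on the log2 scale was 6.84 ± 0.89 for high IMF bulls and 6.81 ± 0.82 for low IMF bulls (SD, n = 10 each). Its difference was 0.03 (SE 0.35, 95% interval -0.70 to 0.77), so a change of up to 0.7 log2 units either way lay within the error. ACVR2B was measured much more tightly, with a difference of 0.11 (SE 0.09, interval -0.09 to 0.30). FST differed by 0.17 (SE 0.16, interval -0.17 to 0.51). Among the myogenic factors, MYF5 had the largest difference, -0.37 (SE 0.23, interval -0.84 to 0.11), with a median signal of 35.6 in high IMF and 52.2 in low IMF muscle. MYF6 differed by -0.14 (SE 0.12, interval -0.38 to 0.11), MYOD1 by 0.15 (SE 0.35, interval -0.57 to 0.87) and MYOG by -0.08 (SE 0.24, interval -0.57 to 0.41). MEF2C differed by 0.02 (SE 0.24, interval -0.49 to 0.52). The adjusted p of every member was 1 in limma, and the high and low IMF animals overlapped in each of them.

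S and no S animals did differ in these genes. MYOD1 and MYOG rose and MSTN, ACVR2B and MEF2C fell in S animals, and FST, MYF5 and MYF6 did not pass limma's test. This made 5 of 8 members called at an adjusted p under 0.05, where 68.3% of all tested probe sets were called, 33.4% higher and 34.8% lower in S animals. A share of members near this background is not a result about the members as a set. Their median size of difference was 0.52 log2 units, against 0.42 over all tested probe sets. In whole muscle, fewer cells of a type and less RNA per cell cannot be told apart. The S animals also had lower ratios of the 3' to the 5' control probe set of PPIB, 1.57 to 2.28 against 2.59 to 3.21 in no S animals, without overlap. The ratios of the other 3 such controls overlapped: those of EIF4E were 6.77 to 12.3 in S (median 9.06) and 6.06 to 9.06 in no S animals (median 7.54), those of actin had medians of 0.767 and 0.864, and those of GAPDH 0.766 and 0.785 in the same order. The part of the array signals, of this ratio and of the marker sums below in the differences was not tested.

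**Figure D1:**
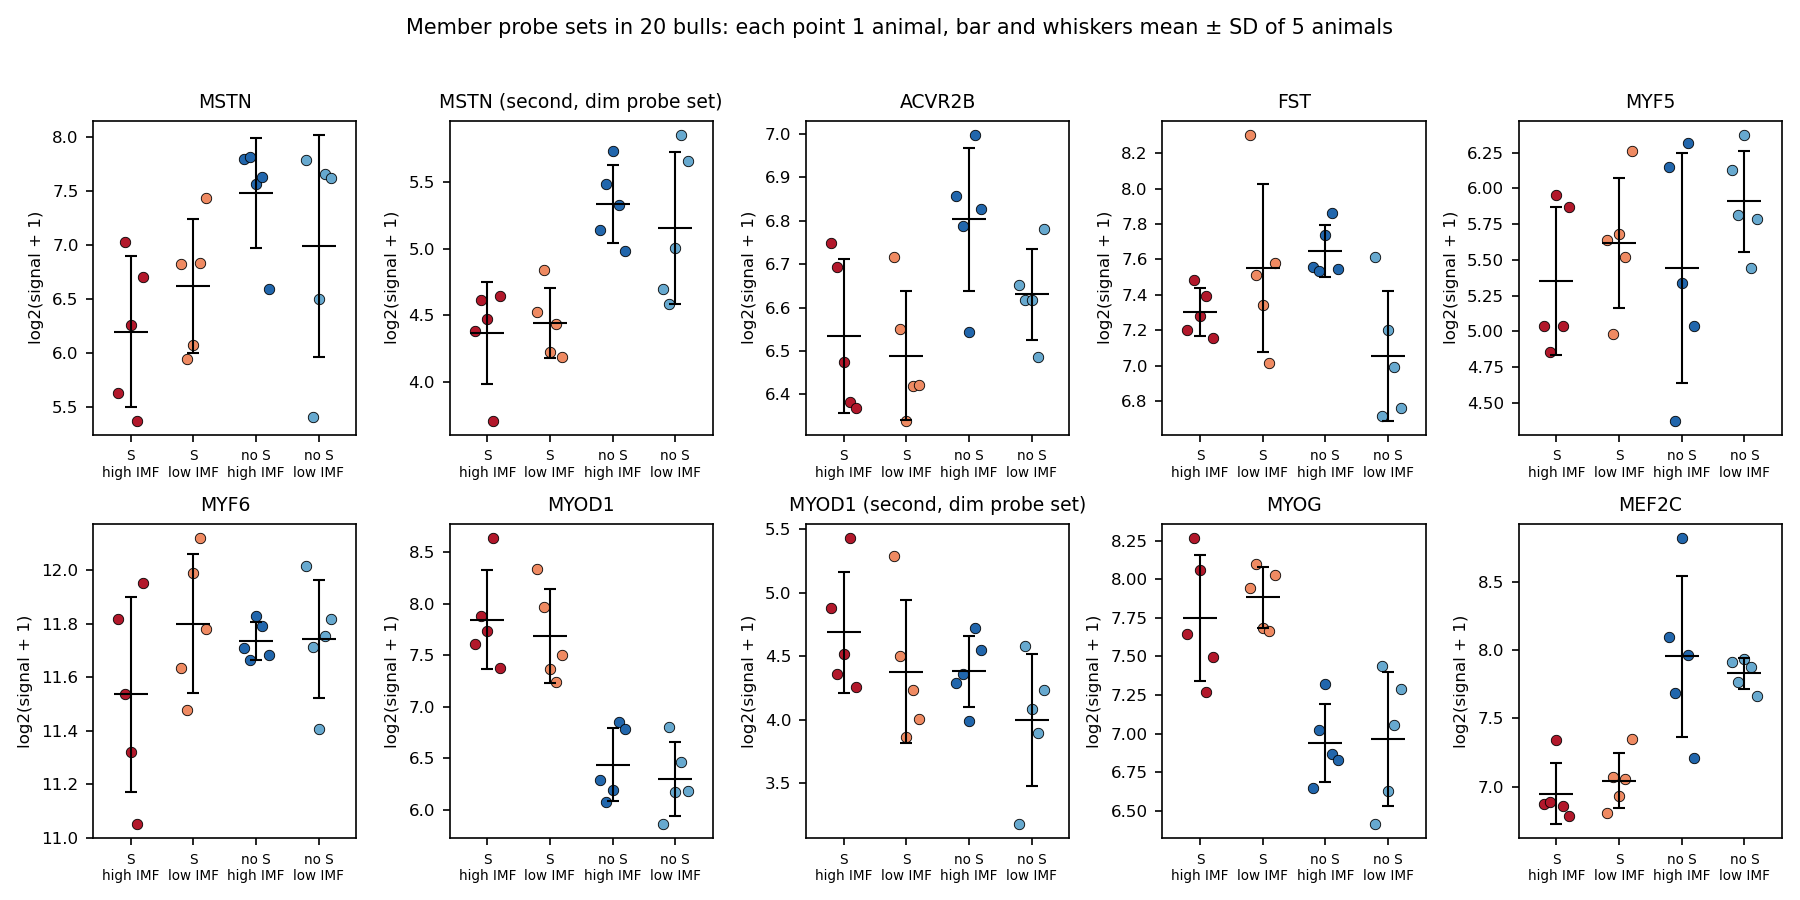
Values of the 10 member probe sets as log2(signal + 1), with the y axis of each panel fitted to its own range. Each point is 1 bull, bar and whiskers give the mean ± SD of 5 bulls, and the sets run from S high IMF and S low IMF to no S high IMF and no S low IMF. For MYOD1 all S animals lie above all no S animals, while MYF6 and FST overlap widely.

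MSTN, the ligand, was lower in S animals on both of its probe sets. On the brighter one the S animals had signals of 48.7, 129, 75.4, 40.6 and 103 with high IMF and of 112, 60.5, 66.2, 112.8 and 172 with low IMF. The no S animals had 221, 225, 188, 197 and 95.7 with high IMF and 219, 41.5, 89.6, 200.8 and 195 with low IMF. The kinds overlapped. The no S animals fell into 7 with signals from 188 to 225, all above the highest S animal, and 3 with signals from 41.5 to 95.7, inside the S range; 4 of the 7 and 1 of the 3 had high IMF. MSTN averaged 6.41 ± 0.66 log2 units in S and 7.24 ± 0.81 in no S animals (SD, n = 10 each). It fell by 0.83 (SE 0.31) on the log2 scale, 1.77-fold lower, with limma's adjusted p = 0.0222. All 10 S animals lay below the median of the no S animals. The call was lost without the 4 arrays with high albumin (-0.80, adjusted p = 0.0683) and without the 2 arrays of lowest median, high IMF replicates 6 and 9 (-0.56, adjusted p = 0.102).

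The dim MSTN probe set gave a difference of the same size, -0.84 (SE 0.17), and was not tested. Its signals ran from 12.1 to 27.6 in S animals (median 20.9) and from 23.0 to 56.9 in no S animals (median 36.7). Across the 20 animals, with the mean of each of the 4 sets (IMF group by title series) subtracted, both MSTN probe sets correlated with r = 0.49, with r = 0.31 within S and 0.59 within no S animals. The 3 no S animals with low signals on the brighter probe set had 23.0 to 31.1 on the dim one, against 25.0 to 56.9 in the 7 others.

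ACVR2B, the receptor through which myostatin acts, was slightly lower in S animals. Its probe set had signals from 80.0 to 107 in S animals (median 86.3) and from 88.7 to 127 in no S animals (median 104). The ranges overlapped, and 8 of 10 S animals lay below the no S median. The difference was -0.21 log2 units (SE 0.08), 1.15-fold lower (limma, adjusted p = 0.0206), and 74.4% of all tested probe sets differed by more. The call was lost under other scalings of the arrays, with arrays centred on their medians (-0.16, adjusted p = 0.0714) and with quantile normalization (-0.14, adjusted p = 0.11). It was also lost without the 4 arrays with high albumin, where fewer arrays gave a difference of about the same size (-0.19, adjusted p = 0.0805).

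FST, the inhibitor, did not pass between S and no S animals, and of all members it had the smallest p for a different IMF effect in the 2 kinds. The pooled S minus no S difference was 0.07 (SE 0.16, adjusted p = 0.695, limma). The S animals had signals of 146, 178, 154, 168 and 142 with high IMF, against 315, 182, 161, 128 and 190.3 with low IMF. Here the 5 high IMF animals lay below the low IMF median, and low IMF replicate 6 was the highest of all 20 bulls. The no S animals had 187, 185, 213, 232 and 186 with high IMF, against 195, 104, 146, 127 and 108 with low IMF. Among these, the 5 high IMF animals lay above the low IMF median, and low IMF replicate 1 reached into their range. The high minus low IMF difference was -0.25 (SE 0.19, interval -0.64 to 0.15, adjusted p = 0.654) in S animals and 0.59 (SE 0.19, 1.51-fold, interval 0.19 to 0.99, adjusted p = 1) in no S animals. The test of the difference between them gave -0.84 (SE 0.27, interval -1.40 to -0.28), with an unadjusted p = 0.00561 and an adjusted p = 0.866 in limma. It thus failed the adjustment over all probe sets, of which 0% passed it and 5.34% had an unadjusted p under 0.05. Of the 8 members, FST was the 1 below that unadjusted threshold.

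For the other members the IMF difference within S and within no S animals was not called either, in a fit where 0% of all probe sets passed in each kind. MSTN was -0.42 (SE 0.42) within S and 0.49 (SE 0.42) within no S animals, and the difference between these estimates did not pass the interaction test (-0.91, SE 0.60, interval -2.16 to 0.34, limma adjusted p = 0.866). The MYF5 difference was -0.27 within S and -0.47 within no S animals (SE 0.32 each), and that of MYOD1 0.16 and 0.14 (SE 0.24 each). In the same order ACVR2B gave 0.04 and 0.17, MYF6 -0.26 and -0.01, MYOG -0.14 and -0.03, and MEF2C -0.09 and 0.13.

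**Figure D2:**
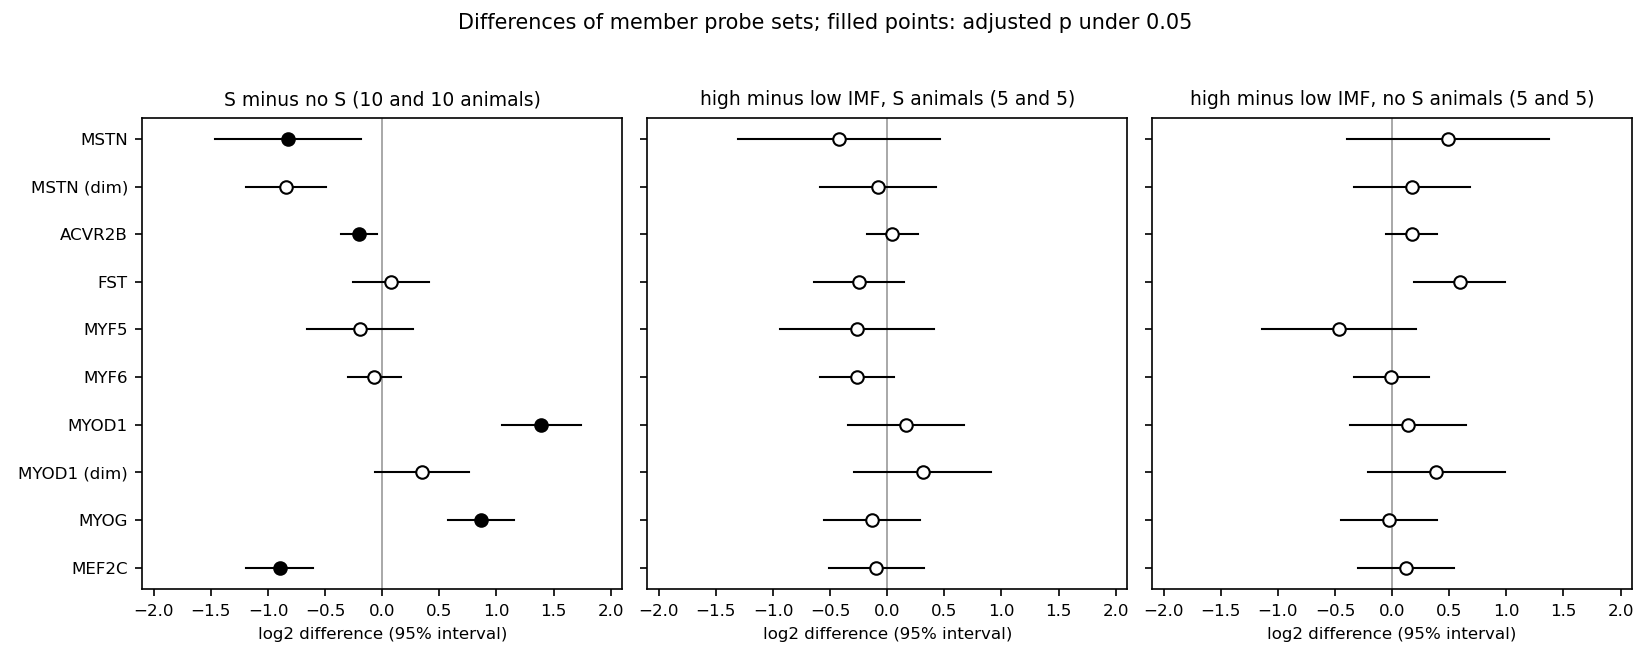
Differences of the member probe sets in log2 units with 95% intervals, for S minus no S animals (10 and 10) and for high minus low IMF within S and within no S animals (5 and 5 each). Filled points passed limma's adjusted p of 0.05, which only MSTN, ACVR2B, MYOD1, MYOG and MEF2C did, all in the panel of S minus no S; the FST interval in no S animals lies above 0.

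MYOD1, which commits cells to the muscle lineage, was the member with the largest S difference and the only one whose S and no S animals did not overlap. Its probe set had signals of 194, 234, 212, 396 and 165 in S animals with high IMF and of 321, 249.6, 165, 150.4 and 180.2 in S animals with low IMF. The no S animals had 77.1, 66.4, 72.3, 115 and 109 with high IMF and 57.3, 111, 71.4, 87.7 and 71.8 with low IMF. The lowest S animal, at 150.4, was above the highest no S animal, at 115. The mean was 7.76 ± 0.45 log2 units in S and 6.37 ± 0.34 in no S animals (SD, n = 10 each), a rise of 1.39 (SE 0.17), or 2.63-fold (limma, adjusted p = 4.22e-07). Groups of 10 that do not overlap were found in 19.6% of all tested probe sets, with S higher in 10.4%, and 2.38% had a larger difference than MYOD1. The 4 sets ran in the order S high IMF (7.85), S low IMF (7.68), no S high IMF (6.44) and no S low IMF (6.30), where neighbours of the same kind differed by less than their SDs of 0.35 to 0.48. The dim probe set had signals from 13.6 to 42.1 in S animals (median 20.6) and from 8.06 to 25.4 in no S animals (median 18.2), which overlapped. Its difference was 0.35 log2 units (SE 0.20) and was not tested, although both MYOD1 probe sets correlated across animals with r = 0.83 after the set means were subtracted.

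MYOG (myogenin), which acts after MYOD1 in differentiation, also rose in S animals. Its probe set had signals of 199, 307, 265, 153 and 179.6 in S animals with high IMF and of 245, 273, 205, 202 and 259 in S animals with low IMF. The no S animals had 99.1, 129, 159, 116 and 112.7 with high IMF and 84.3, 172, 98.1, 132 and 155 with low IMF. The kinds overlapped through 1 S animal, high IMF replicate 9, which lay below the highest no S animal. The mean was 7.81 ± 0.31 log2 units in S and 6.95 ± 0.33 in no S animals (SD, n = 10 each). The difference was 0.86 (SE 0.14), or 1.82-fold (limma, adjusted p = 1.69e-05), and 16.2% of all tested probe sets differed by more.

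MEF2C, the cofactor of these proteins at muscle promoters, moved the other way. Its probe set had signals of 116, 118, 162, 115 and 109 in S animals with high IMF and of 111, 133.7, 121, 132 and 162 in S animals with low IMF. The no S animals had 273, 205, 451, 249 and 147 with high IMF and 239.8, 217, 244, 234 and 202 with low IMF. The kinds overlapped through 1 no S animal, high IMF replicate 5, at 147, and high IMF replicate 3, at 451, was the highest of all. The mean was 6.998 ± 0.21 log2 units in S and 7.89 ± 0.41 in no S animals (SD, n = 10 each). MEF2C fell by 0.90 log2 units (SE 0.14), 1.86-fold lower (limma, adjusted p = 1.17e-05), and 14.6% of all tested probe sets differed by more.

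MYF5 and MYF6 gave no call in this comparison. MYF5 had signals from 28.0 to 75.6 in S animals (median 46.8) and from 19.8 to 82.04 in no S animals (median 54.7). The difference was -0.19 (SE 0.22, interval -0.66 to 0.27, adjusted p = 0.455, limma). MYF6 had signals from 2121 to 4448 in S animals (median 3346) and from 2715 to 4145 in no S animals (median 3405). Its difference was -0.07 (SE 0.11, interval -0.30 to 0.16, adjusted p = 0.59, limma).

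**Figure D3:**
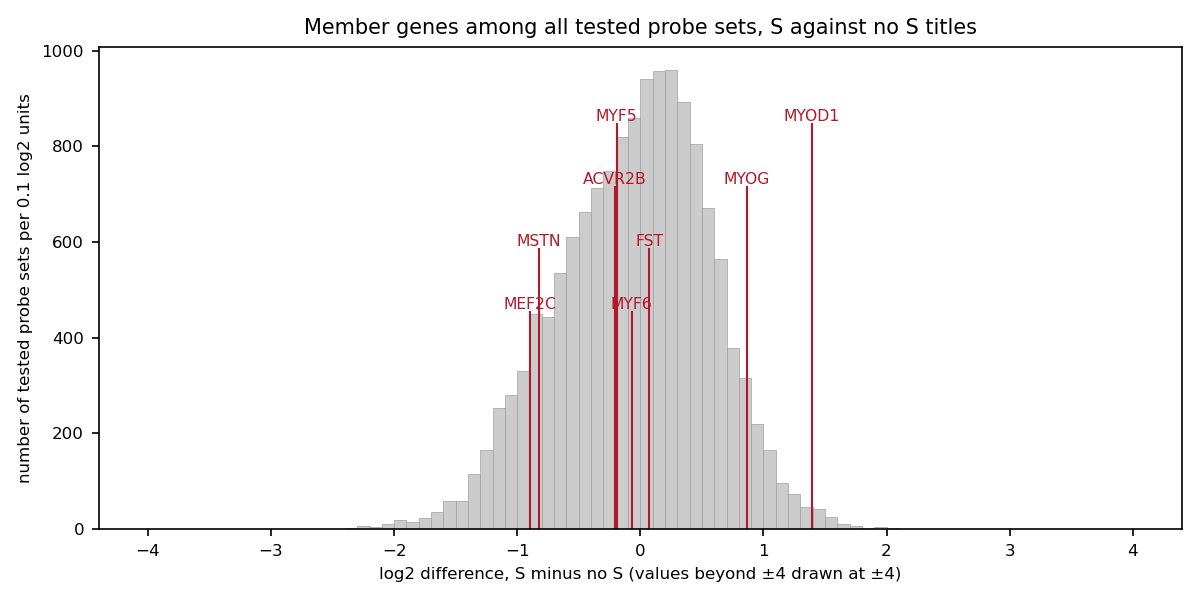
Histogram of the log2 difference, S minus no S animals, of the 14410 tested probe sets in steps of 0.1 log2 units, with lines at the 8 tested member genes. MYOD1 lies far to the right, with 2.38% of all probe sets larger in size, and MSTN and MEF2C lie on the left; MYF5 and ACVR2B almost coincide.

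Spread between animals was wide for myostatin on its brighter probe set and narrow for its receptor. The SD of MSTN within the 4 sets was 0.74 log2 units, and 98.3% of tested probe sets of similar mean signal (1 of 10 equal bins) had a smaller one, with a median of 0.28 in that bin. The brightest bull for MSTN had 5.43 times the signal of the dimmest. ACVR2B lay in the same bin, had an SD of 0.15, smaller than in all but 2.71% of these probe sets, and spanned 1.58-fold. On the dim MSTN probe set the SD was 0.31 in S and 0.44 in no S animals (n = 10 each). On the brighter one these SDs were 0.66 and 0.81. MYF5 had an SD of 0.56, with 92.2% of its bin smaller and a range of 4-fold. MYOD1 (SD 0.41, 84.9% smaller), MYF6 (0.25, 82% smaller), MYOG (0.34, 77% smaller), MEF2C (0.34, 76.5% smaller) and FST (0.32, 71.4% smaller) were all above the middle of their bins. Of the variance over the 20 animals, the title series held 77.2% in MYOD1, 68.3% in MEF2C and 66.5% in MYOG, against a median of 42.3% over all tested probe sets. It held 32.1% in ACVR2B, 26% in MSTN, 3.16% in MYF5, 2.04% in MYF6 and 1.04% in FST. These are descriptions of 20 animals and carry no test.

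The members were also compared with each other across the 20 animals, after the mean of each of the 4 sets was subtracted. Of 28 pairs, 0 passed the permutation test within sets (100000 resamples, two-sided) after Benjamini-Hochberg adjustment, by Pearson's r or Spearman's rho, and 2 had an unadjusted p under 0.05 for r. MYF6 was lower in animals with more MYOD1, with r = -0.66 (permutation p = 0.00591, adjusted 0.165) and rho = -0.67 (permutation p = 0.00485, adjusted 0.136). Without the 2 animals farthest from the MYF6 median r was -0.49. Within S animals it was -0.86 and within no S animals -0.19, and the difference between these was not tested. MSTN and MYOD1 had r = -0.48 (permutation p = 0.0455, adjusted 0.638) and rho = -0.42 (permutation p = 0.0906, adjusted 0.549), with -0.35 within S, -0.64 within no S and -0.33 without the 2 animals farthest from the MSTN median. High IMF replicate 9, an S animal, was the lowest of all 20 bulls in MYF6 and MSTN and the highest in MYOD1. Its array was 1 of the 2 of lowest median (56.7), and no correlation was run without these 2 arrays. MYF5 and MYF6, between which the RefSeq annotation of the cattle assembly ARS-UCD2.0 places 0 other protein-coding genes, had r = 0.15 (permutation p = 0.52, adjusted 0.774). MSTN and its inhibitor FST had r = 0.27 (permutation p = 0.327, adjusted 0.658), and MYOD1 and MYOG 0.15 (permutation p = 0.575, adjusted 0.774).

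**Figure D4:**
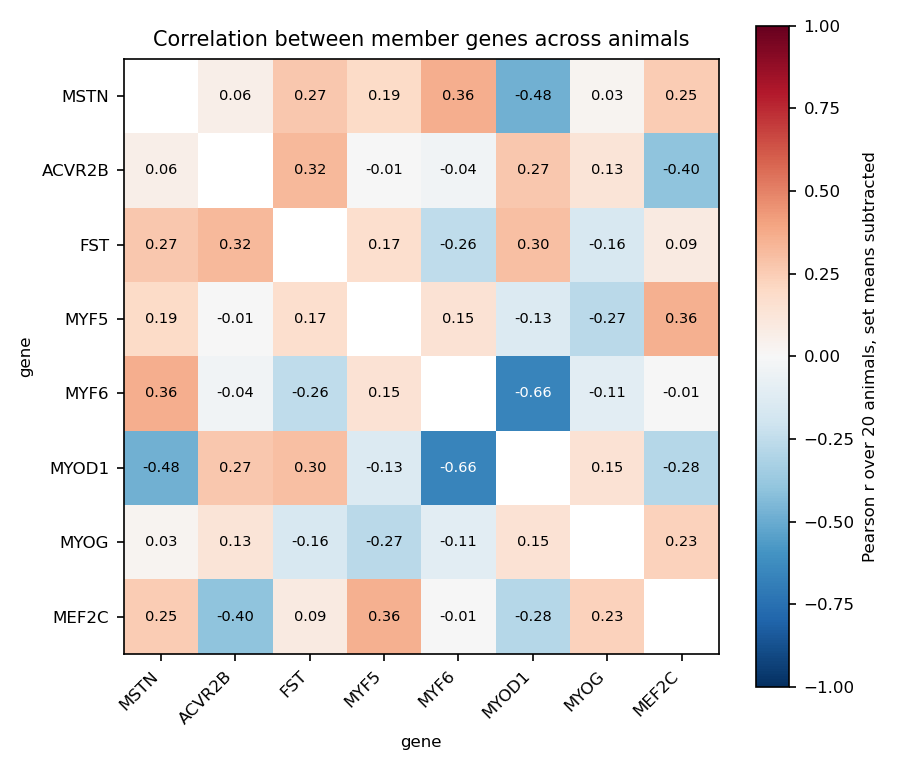
Pearson's r between the 8 tested member genes over 20 animals after the means of the 4 sets were subtracted, with red for positive and blue for negative values. MYF6 and MYOD1 (-0.66) and MSTN and MYOD1 (-0.48) are the most negative pairs, and 0 of the 28 pairs passed the adjusted test.

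For each member, the 3 genes whose values followed it most closely over the 20 animals were named as a description, by r with the set means subtracted, on arrays that share their scaling. The search for these genes ran over all tested probe sets with 1 symbol, which by itself favours a large r, and none was tested. For MSTN these were C11H9orf78 (0.84), TMOD3 (0.81), which caps actin filaments, and PPARGC1A (0.80), a coactivator of mitochondrial genes. For ACVR2B they were CXXC5 (0.81), KLHL28 (0.72) and PFKFB3 (0.70), a regulator of glycolysis, and for FST they were the kinase FYN (0.89), RBM10 (0.83) and IGFBP3 (0.82), a carrier of insulin-like growth factors. MYF5 was followed by LZTFL1 (0.88), FRG1 (0.87) and METTL14 (0.83), a subunit of the enzyme that methylates adenosine in RNA. MYF6 was followed by NHERF4 (0.76), CHMP2A (0.73) and RPS4Y1 (0.73). MYOD1 was followed by SMARCA4 (0.87), the motor of a chromatin remodelling complex, YWHAG (0.83) and the splicing factor SF1 (0.80). MYOG was followed by C24H18orf25 (0.86), GRPEL1 (0.78) and B3GNT3 (0.75), and MEF2C by ASB5 (0.88), ARPP19 (0.86) and the phosphatase CTDSP1 (0.84). None of these 24 is another member of the set.

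The wider pathway was read from 6 lists of genes other than the members. In high against low IMF muscle 0 genes of any list passed limma's test, as with all probe sets. The genes with the smallest p in each list were INHA (0.11 log2 units) and FURIN (0.05) among ligands and their processing, and BAMBI (0.07) and FSTL3 (-0.06) among inhibitors. They were SMAD5 (0.28) and ACVR1 (0.26) among receptors and SMAD proteins, TCF4 (-0.28) and MEF2A (-0.32) among partners of the myogenic factors, CHRNE (0.67) and CDKN1A (0.46) among their targets, and SPRY1 (-0.19) and VCAM1 (0.25) among satellite cell genes. Each of these had an adjusted p of 1.

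Between S and no S animals, genes of the myostatin pathway moved in both directions, beside the 33.4% of all probe sets called higher and the 34.8% called lower. In 19.6% of all tested probe sets the kinds did not overlap. Of 3 tested ligand and processing genes 1 was called: FURIN, a protease that cuts myostatin and other precursors, was higher in S animals by 0.84 (adjusted p = 4.11e-08, limma), with no overlap between the kinds. INHA, an inhibin subunit, gave -0.16 and was not called. Of 3 tested inhibitors 1 was called lower, DCN (decorin), a matrix proteoglycan that can bind myostatin (-0.40, adjusted p = 0.035, limma), and FSTL3, a relative of follistatin, gave 0.17 and was not called. Of 7 tested receptors and SMAD proteins 1 was called higher and 4 lower, with a median of -0.33 log2 units, against -0.003 over all tested probe sets. SMAD4, the partner shared by all receptor-regulated SMAD proteins, fell by 0.62 in S animals (adjusted p = 5.43e-06, limma) with no overlap, and the BMP receptor BMPR2 fell by 0.43 (adjusted p = 0.000508).

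Genes around the myogenic factors were as mixed. Of all tested probe sets 68.3% were called and 19.6% did not overlap between the kinds. Of 12 tested partners and upstream regulators 3 were called higher and 4 lower in S animals (median 0.13). TCF12, an E protein with which MYOD1 pairs on DNA, fell by 0.85 (adjusted p = 9.42e-09, limma), and SMARCD3, a chromatin remodelling subunit used by MYOD1, was higher by 0.78 (adjusted p = 2.59e-08), both with no overlap between the kinds. Of 15 tested targets and later steps 5 were called higher and 5 lower (median 0.17). SGCA, a sarcoglycan of the fibre membrane, was higher by 1.03 (adjusted p = 3.05e-09, limma) and MYPN, a protein of the sarcomere, fell by 0.37 (adjusted p = 1.82e-05), again with no overlap.

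Of 9 tested satellite cell genes 5 were called higher and 1 lower in S animals. Of all tested probe sets 68.3% were called, 33.4% higher and 34.8% lower. The median of the list was 0.55 log2 units, against -0.003 over all tested probe sets. CD34, also found on blood vessel cells, was higher by 0.84 (adjusted p = 1.37e-06, limma), and MET, the receptor for hepatocyte growth factor, fell by 0.95 (adjusted p = 5.1e-07). The satellite cell markers, which include MYF5 and of which 5 of 10 had a probe set, summed to between 896 and 1840 in S animals (median 1251) and between 739.5 and 1102 in no S animals (median 853). The 4 tested markers did not move together, as 1 had a higher and 3 a lower mean in S animals, with a median of -0.20. The integrin ITGA7, named after its value was seen, was called higher (0.79, adjusted p = 0.000117, limma). MET was called lower, and VCAM1 (-0.20) and MYF5 (-0.19) were not called. ITGA7 was much the brightest, at 10.01 log2 units in S and 9.23 in no S animals, so the sums mostly follow it. The means of the 3 others lay between 5.48 and 6.83. The macrophage markers, 3 of 5 with a probe set, summed to between 237 and 377 in S animals and between 101 and 244 in no S animals. The adipocyte markers summed to between 408 and 20510 in S animals and between 229 and 4332 in no S animals. The endothelial markers summed to between 822 and 1474 in S and between 751 and 1296 in no S animals, and the fibroblast and matrix markers to between 6831 and 15910 in S and between 4757 and 22450 in no S animals. The liver markers summed to between 1769 and 28400 in S and between 1113 and 24050 in no S animals. These sums take 1 probe set per gene. They leave out the highest albumin signals, 83310 in low IMF replicate 3 and 59750 in high IMF replicate 10. The nerve and Schwann cell markers, 2 of 5 with a probe set, summed to between 476 and 1030 in S and between 717 and 1299 in no S animals. The ranges of S and no S animals overlapped for each of these 7 lists, while single genes of each were called. Called higher in S animals were 4 of 4 tested adipocyte, 2 of 2 macrophage and 2 of 4 endothelial markers. So were 2 of 6 fibroblast and matrix and 2 of 5 liver markers, with 0 called lower in these lists. Of the nerve and Schwann cell markers 2 of 2 were called lower. The defining markers NCAM1, LEP, ADIPOQ, VWF, KDR and CD68 were among the dim probe sets that were not tested.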

How the data were processed

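The authors deposited 1 table of linear signal intensities per probe set for 20 Affymetrix cattle arrays, made with GCOS 1.1.1 and Affymetrix Expression Console 1.1 per the submitters' processing notes (summary method not given in the sources used here). Scaling of the deposited intensities was kept, and log2(value + 1) was taken, which understates changes of dim probe sets. After 112 control probe sets were removed, the 40% of 24016 probe sets with the lowest mean were left out and 14410 were tested. Gene symbols came from the platform annotation, and no coordinates are printed because no genome build is stated.

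Comparisons used limma 3.58.1 (two-sided) in R 4.3.3 with Benjamini-Hochberg adjustment over all 14410 probe sets: high against low IMF, S against no S animals with IMF group as a covariate, and their interaction in a fit of 4 set means. The series text names a paired t-test, but the labels pair no animals. Replicates are separate animals with 1 array each, and the number of arrays limits the precision. The code was tested on simulated data with 14410 probe sets and independent noise per probe set, where 66 or 67 probe sets were changed by each size. It recovered 25.4%, 76.1% and 98.5% of changes of 0.5, 1 and 2 log2 units for IMF. The shares were 62.7%, 97% and 100% for S against no S, and 4.48%, 56.7% and 92.4% for the interaction. In the same order there were 0, 7 and 9 false calls. In the data 68.3% of probe sets were called between S and no S animals, so these shares need not carry over.

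The members and lists were chosen with earlier results of these data known. Named genes were all members, from each list the 2 genes with the smallest p per comparison, and for each member the 3 genes with the highest r. Each gene of a list stood on its probe set with the highest mean log2 signal. Alternatives changed the filter, pseudocount, scaling, covariate, prior and the arrays included.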

Additional observations from a re-analysis of the deposited data

Results flagged for a closer look

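The high minus low IMF difference of FST differed between S and no S animals by -0.84 log2 units (SE 0.27) in the interaction test of limma, with an unadjusted p = 0.00561 and an adjusted p = 0.866 over all probe sets. The 5 S animals with high IMF lay below the median of the S animals with low IMF, and the 5 no S animals with high IMF lay above that of the no S animals with low IMF. With 1 animal left out at a time the value ran from -0.98 to -0.65.

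Dixon's gap criterion at 95% gave 0 cases in 20 checks of the 10 member probe sets in the IMF groups of 10, which mix S and no S animals. In the 4 sets of 5 animals, a check chosen after seeing the data, it gave 3 cases in 40, where chance gives about 1 in 20. In no S animals with high IMF, replicate 5 stood low in MSTN at 6.59 log2 units, with the next animal at 7.56. In S animals with high IMF, replicate 9 stood low on the dim MSTN probe set at 3.71, with the next at 4.38, and replicate 8 stood high in MEF2C at 7.34, with the next at 6.89.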

How the results depend on the processing

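Of 1447 values recomputed under alternatives, 1390 kept their direction and their side of the threshold or, for counts, stayed within 1.5 times the reported count, 48 turned sign, 5 lost and 1 gained a call, and 3 counts moved by more than that. The calls of MYOD1, MYOG and MEF2C between S and no S animals held in every alternative run. Without the 4 arrays with high albumin 3 members were called in place of 5, and MSTN and ACVR2B lost theirs; 4 were called with each other scaling, without the 2 arrays of lowest median and with the 60% dimmest probe sets left out. Without subtraction of the set means 4 pairs of members passed in place of 0, among them MSTN and MYOD1 at r = -0.63. Without high IMF replicate 4, 1 probe set passed for IMF within no S animals, so that this count ran from 0 to 1. S against no S calls ran from 6997 with the 60% dimmest probe sets left out, which drops MYF5 and ACVR2B, to 12549 without a filter, against 9838. Values that were not called turned sign as follows. Without the arrays with high albumin, only replicates 7 and 9 remained of the S animals with high IMF. In that run the interaction of MYF5 was -0.32 and the IMF difference of MYOD1 -0.12. Without the 2 arrays of lowest median, the interaction was -0.16 in MYOD1 and 0.086 in MYOG, the IMF difference of MYOD1 -0.094, and that within S animals 0.041 in MSTN, -0.022 in MYOD1 and 0.057 in MYOG. With 1 animal left out at a time, the interaction ran from -0.066 to 0.42 in MYF5, from -0.17 to 0.18 in MYOD1 and from -0.24 to 0.031 in MYOG. The IMF difference ran from -0.14 to 0.089 in MEF2C, from -0.12 to 0.20 in MSTN and from -0.015 to 0.30 in MYOD1. Within no S animals it ran from -0.091 to 0.31 in MEF2C, from -0.091 to 0.062 in MYF6 and from -0.17 to 0.09 in MYOG, and within S animals from -0.009 to 0.10 in ACVR2B and from -0.035 to 0.32 in MYOD1. The S minus no S difference of FST ran from -0.039, without low IMF replicate 6, to 0.12. The cause was not tested. No paired analysis was possible because the labels pair no animals, and no member has another tested probe set for the correlations. A pooled-variance t-test of IMF gave 258 probe sets at an unadjusted p under 0.05 and 0 after adjustment. The fit without the high albumin arrays and with the title series as a covariate was chosen after seeing the data and called 0 probe sets.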

Other observations

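Further genes of the lists, chosen here after their values were seen, also passed the test between S and no S animals, as did 68.3% of all tested probe sets. MEF2A, a relative of MEF2C, fell by 1.12 log2 units in S animals (SE 0.12, limma adjusted p = 1.46e-07), and the histone deacetylase HDAC5, which can hold MEF2 proteins in check, was higher by 0.71 (SE 0.11, adjusted p = 7.97e-06). DLK1, an inhibitor of fat cell formation that muscle also makes, was higher by 1.49 (SE 0.21, limma adjusted p = 2.45e-06). Its kinds did not overlap, as in 19.6% of all tested probe sets. CHRNE, the adult subunit of the acetylcholine receptor of muscle, was higher by 1.41 (SE 0.28, limma adjusted p = 0.000148). The other tested subunits of this receptor did not follow it. CHRNA1 was called lower (-0.38, limma adjusted p = 0.0255), and CHRNB1 (-0.063) and CHRND (-0.034) were not called. Of the nuclear effectors of myostatin, SMAD2 fell by 0.33 (SE 0.08, limma adjusted p = 0.000713) and SMAD3 fell by 0.57 (SE 0.15, adjusted p = 0.00168). In the same list TGFBR2 was called higher (0.35, limma adjusted p = 0.0306), and ACVR1 (-0.009) and SMAD5 (0.055) were not called. The embryonic myosin MYH3 fell by 0.41 (SE 0.11, limma adjusted p = 0.00247). It belongs to the 15 tested targets and later steps, of which 5 were called higher and 5 lower.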
